A study of Mus musculus with 6 samples.

Results

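Immediate early genes are a small class of genes whose transcripts appear within minutes of a stimulus, without the need for new protein. Genes of this class are often read in tissue RNA because dissection and dissociation can switch the genes on. The members here were Fos, Jun, Junb, Egr1, Ier2, Dusp1, Atf3, Btg2, Zfp36 and Nr4a1, taken by gene name from the table of FPKM values, which are reads scaled to gene length and to library size. All 10 names were found, each in 1 of the 55850 gene rows.

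The study measured RNA of whole mouse testis in 6 samples, 3 of genotype WT and 3 of genotype CKO, written cKO here, all labelled as untreated. Per the series title, the gene at stake is Srsf2, a splicing factor gene, in Sertoli cells, which line the seminiferous tubules and support germ cells. The labels do not give the Cre driver, the deleted exons, the age of the mice, whether samples came from separate animals, or how and how fast the testes were taken. P-values therefore reflect only how these libraries scatter, which could be technical scatter. Srsf2 itself was at 76.4% of the WT mean in the cKO libraries, and every cKO library lay below every WT library (limma adjusted p = 0.384, exact two-sided permutation p = 0.1, the smallest that 3 against 3 can give).

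Reads recovered from the FPKM values came to 16070287 to 17281330 per library. All 15 Sertoli markers of a fixed list were above 1 FPKM, as the tissue label implies. Of 7 markers of rete and epididymal epithelium, 4 were too, Krt8, Krt18, Krt19 and Cdh1. Pax8, Crisp1 and Lcn5 were below 1 FPKM, so the list does not settle whether such epithelium was present. None of the marker genes passed over all genes by limma, where 0.014% of the genes tested did. Of the 15 Sertoli markers, 8 were at an unadjusted p under 0.05 by limma and 8 had groups that did not overlap. In the other lists these counts were 0 to 3 and 1 to 3 genes each. Over all genes tested the shares were 12.3% and 18.6%. Summed Sertoli markers were 1740 to 2259 FPKM in WT and 1266 to 1472 FPKM in cKO libraries, with 14 of 15 below zero and a median log2 difference of -0.33. Summed stromal markers were 1095 to 1146 and 862 to 1074 FPKM (5 of 8 below zero, median -0.21), and summed endothelial markers 100.1 to 111 and 89.96 to 99.97 FPKM (6 of 8, median -0.11). Summed macrophage markers were also apart, at 27.1 to 32.8 and 21.3 to 26.8 FPKM, but 4 of 8 were below zero and 4 above, with a median of 0.02. Red blood cell markers were above zero in 7 of 7 (median 0.69) and germ cell markers in 9 of 9 tested (median 0.22), while their summed ranges overlapped, at 2717 to 5699 and 4868 to 6495 FPKM for red blood cells and 194 to 407 and 257 to 389 FPKM for germ cells. Of the summed lists of Leydig cells (1408 to 2075 and 1623 to 1868 FPKM), myoid cells (198 to 238 and 199 to 231 FPKM) and rete or epididymal epithelium (32.3 to 43.2 and 28.1 to 35.7 FPKM), none separated the groups. In these bulk samples, fewer cells of a type and less RNA per cell cannot be told apart.

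The 10 genes work in a short chain. Growth factors, stress and cyclic AMP act through kinases on SRF with its partners and on CREB, which sit ready on the promoters. The first products are transcription factors of the AP-1 family (Fos, Jun, Junb and Atf3), the zinc finger factor Egr1 and the orphan nuclear receptor Nr4a1. Others end the response: Dusp1 is a phosphatase that switches off MAP kinases, Zfp36 binds AU-rich messages and speeds their decay, and Btg2 restrains proliferation and promotes deadenylation. Ier2 is a small nuclear protein of the same early wave. In the testis, Nr4a1 is also known as a factor induced by luteinising hormone in Leydig cells, and Btg2 is also a target of p53.

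Promoter sequence was looked up in RefSeq windows on GRCm38.p6, with positions counted back from the listed gene start, whose last upstream base is -1. Egr1 and Ier2 were not searched, and windows were found for the other 8 of the 10 genes. Of these, 2 held the full cyclic AMP response element TGACGTCA in the 250 bases before the start (1.55% of 32851 windows of all genes did), and 6 held its shorter core TGACG on either strand (17.8%), which lies within every full element. In Atf3 the only core match, at -7 to -3, lies in bases annotated as exon of the gene in GENCODE M21. The CArG box bound by SRF was found in 1, Zfp36 (1.47% of all windows), whose 250 bases all lie in annotated exons of the gene in GENCODE M21, TATAAA on the sense strand in 1, Fos (7.59%), and the AP-1 site TGAGTCA, on either strand, in 0 (4.46%). Matches describe letters in these windows only. Sites further than 250 bases before the start were not searched, for Fos or any other member, so 0 matches here do not mean that a gene lacks the site. The stretches below are shown because Fos is the archetype of the class, Dusp1 and Btg2 carry the full element, and Junb and Btg2 were the tested members with the lowest unadjusted p on either side of zero. Capitals mark TGACGTCA, TGACG and TATAAA. They lie at chr12:85473640-85473889 (Fos, plus strand), chr1:134079156-134079405 (Btg2, minus strand), chr17:26508520-26508722 (Dusp1, minus strand, ending before an annotated exon at -48) and chr8:84978749-84978998 (Junb, minus strand).
Fos: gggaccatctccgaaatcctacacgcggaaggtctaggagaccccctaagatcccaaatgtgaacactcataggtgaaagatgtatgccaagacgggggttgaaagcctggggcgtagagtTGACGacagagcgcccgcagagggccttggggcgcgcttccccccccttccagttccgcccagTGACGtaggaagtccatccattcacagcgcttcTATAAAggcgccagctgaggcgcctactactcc
Btg2: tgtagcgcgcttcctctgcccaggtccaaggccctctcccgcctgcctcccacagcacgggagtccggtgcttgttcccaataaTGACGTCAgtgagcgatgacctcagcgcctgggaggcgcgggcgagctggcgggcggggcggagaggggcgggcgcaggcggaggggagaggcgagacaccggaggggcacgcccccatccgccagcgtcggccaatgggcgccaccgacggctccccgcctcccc
Dusp1: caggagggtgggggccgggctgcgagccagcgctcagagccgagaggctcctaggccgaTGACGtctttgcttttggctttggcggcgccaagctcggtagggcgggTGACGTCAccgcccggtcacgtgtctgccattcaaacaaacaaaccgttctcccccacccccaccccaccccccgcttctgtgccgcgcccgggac
Junb: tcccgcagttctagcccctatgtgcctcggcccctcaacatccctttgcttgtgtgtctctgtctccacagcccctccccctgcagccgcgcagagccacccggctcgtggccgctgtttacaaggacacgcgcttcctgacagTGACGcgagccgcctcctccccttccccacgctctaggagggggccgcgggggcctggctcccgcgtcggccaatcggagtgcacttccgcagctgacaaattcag

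The members spanned a wide range of levels, and Fos was the lowest of them. Fos stood at 0.829, 0.785 and 0.626 FPKM in WT replicates 1, 2 and 3 and at 0.672, 0.627 and 0.677 FPKM in the cKO replicates, from 24 to 31 recovered reads per library. Its 95% exact Poisson intervals, which cover counting error only, ran from 0.401 to 1.18 FPKM over the 6 libraries and all overlapped. The spread of Fos between libraries (coefficient of variation 12.0%) was smaller than that of counting alone at this depth (19.1%). With a mean of 0.703 FPKM it lay under the filter of 1 FPKM, and 9 of 10 members were tested. The fits that kept Fos, limma without a filter and voom on recovered reads, gave it adjusted p of 0.868 and 0.881. Of protein-coding genes with any read, 31.8% had a lower mean than Fos, against 93.6% for Ier2 (37.6 FPKM) and 92.8% for Jun (34.1 FPKM). On the same per-length scale Btg2, Nr4a1 and Egr1 followed at means of 15.9, 13.9 and 12.5 FPKM, then Dusp1 (4.41), Zfp36 (4.08), Junb (3.55) and Atf3 (1.41 FPKM). The ranges of neighbours in that order over the 6 libraries overlapped for Ier2 and Jun, for Btg2 and Nr4a1, for Nr4a1 and Egr1, for Dusp1, Zfp36 and Junb, and for Atf3 and Fos.

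**Figure D1:**
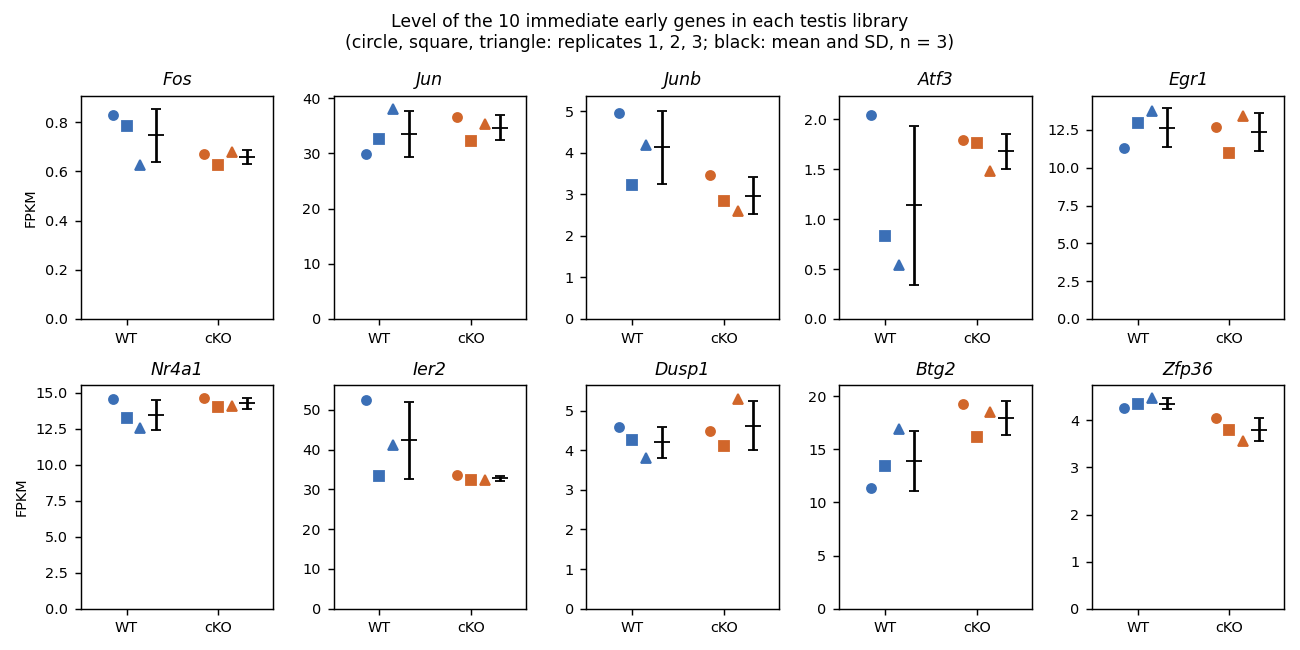
FPKM (vertical axes, each starting at 0) of the 10 genes in the 3 WT and 3 cKO libraries, with 1 symbol per replicate and the mean and SD in black. Fos stays between 0.626 and 0.829 FPKM in all 6 libraries, Ier2 and Atf3 are spread widely among WT libraries, and only Zfp36 has groups that do not overlap.

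No member passed the test between cKO and WT testis over all genes. The limma fit with Benjamini-Hochberg adjustment called 0 of 9 tested members, with a lowest adjusted p of 0.405, where 0.014% of the 14238 genes tested were called. At an unadjusted p under 0.05 it was 1 of 9, Btg2, which was higher, where 12.3% of all genes were, 4.65% higher and 7.68% lower. The members went both ways, 5 up and 4 down, with a median log2 difference of 0.05, beside 0.00 over all genes tested (0.0049). With length and GC trends removed, as described further on, 6 were up and 3 down with a median of 0.19, and without WT replicate 1 the median was -0.03. Their median absolute log2 difference was 0.16, equal at that rounding to the 0.16 of all genes tested. In 0 members did every cKO library lie above every WT library (8.69% of all genes), and in 1, Zfp36, every cKO library lay below (9.92%).

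Among the AP-1 genes, Jun overlapped fully between the groups and Junb was at 71.9% of its WT mean in cKO testis. Jun, the main AP-1 partner of Fos, stood at 29.8, 32.7 and 38.1 FPKM in WT and 36.6, 32.2 and 35.3 FPKM in cKO libraries. The cKO values lay within the WT range (log2 difference 0.05, 95% interval -0.24 to 0.35, limma adjusted p = 0.876). Junb, an AP-1 member that can oppose Jun, was at 4.97, 3.24 and 4.18 FPKM in WT and 3.46, 2.84 and 2.61 FPKM in cKO libraries. Of the cKO libraries, 1, replicate 1, lay above the lowest WT library, so the groups overlapped, at means of 4.13 ± 0.870 and 2.97 ± 0.442 FPKM (SD, n = 3). On the log2 scale Junb differed by -0.36, with a 95% interval of -0.74 to 0.01, and the adjusted p by limma was 0.408.

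Atf3, a stress-induced repressor of the same family, had the widest spread of the 10. It stood at 2.04, 0.830 and 0.541 FPKM in WT, from 70, 30 and 19 reads, and at 1.79, 1.76 and 1.48 FPKM in cKO libraries, from 66, 67 and 52 reads. WT replicate 1 was above all 3 cKO libraries and the other WT libraries below them, a 3.78-fold range over the 6 libraries. The exact Poisson interval of WT replicate 1 (1.59 to 2.58 FPKM) did not overlap those of WT replicate 2 (0.560 to 1.18) or 3 (0.326 to 0.845), so WT libraries differed beyond counting error. The log2 difference was 0.39 (95% interval -0.20 to 0.98, limma adjusted p = 0.540), and it was 0.67 without WT replicate 1 and 0.18 without WT replicate 3. Of tested genes, 89.2% had a smaller SD within groups than Atf3 on the log2 scale.

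Egr1 and Nr4a1, factors of the first wave outside AP-1, had narrow ranges over the 6 libraries. Egr1 stood at 11.3, 12.9 and 13.7 FPKM in WT and 12.7, 10.9 and 13.4 FPKM in cKO libraries, and the groups overlapped almost fully (log2 difference -0.03, 95% interval -0.32 to 0.25). The sign of that value turned in 4 of 19 other settings, some of which, such as the filters, cannot change it. Nr4a1 was at 14.6, 13.2 and 12.5 FPKM in WT and 14.7, 14.0 and 14.1 FPKM in cKO libraries, a 1.17-fold range in all, the narrowest of the 10 (log2 difference 0.08, 95% interval -0.16 to 0.32). That value was 0.14 without WT replicate 1 and 0.04 without WT replicate 3.

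Ier2 was high in WT replicate 1 and level in the cKO group. Its values were 52.5, 33.3 and 41.3 FPKM in WT and 33.6, 32.4 and 32.4 FPKM in cKO libraries. WT replicate 2 lay below cKO replicate 1 and above the other cKO libraries, so the groups overlapped by 1 library, and the SD was 9.65 FPKM in WT against 0.691 FPKM in cKO (n = 3 each). Ier2 thus had a log2 difference of -0.34 (SE 0.17, adjusted p = 0.439 by limma), or -0.17 without WT replicate 1. From 805 to 1272 reads per library, counting alone would give a coefficient of variation of 3.24%, and the 6 libraries had 21.4%.

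Of the genes that end the response, Btg2 was higher and Zfp36 lower in cKO testis by small amounts that did not pass. Btg2 stood at 11.3, 13.4 and 16.9 FPKM in WT and 19.2, 16.2 and 18.5 FPKM in cKO libraries. WT replicate 3 lay above cKO replicate 2, the 1 overlap between the groups, and the means were 13.9 ± 2.83 and 17.99 ± 1.61 FPKM (SD, n = 3). Btg2 differed by 0.36 on the log2 scale, with a 95% interval of 0.0046 to 0.72 and an adjusted p of 0.405 by limma. That difference was 0.24 without WT replicate 1 and 0.51 without WT replicate 3. Zfp36 was at 4.26, 4.34 and 4.47 FPKM in WT and 4.05, 3.79 and 3.57 FPKM in cKO libraries. The groups of Zfp36 did not overlap, at 87.3% of the WT mean (exact two-sided permutation p = 0.1, the smallest possible), yet the log2 difference was -0.16 and the limma adjusted p was 0.556. Its SD within groups was among the smallest, with 1.95% of tested genes below it. Dusp1 was at 4.58, 4.25 and 3.80 FPKM in WT and 4.48, 4.10 and 5.29 FPKM in cKO libraries, and cKO replicate 3 was the 1 library above the WT range (log2 difference 0.11, limma adjusted p = 0.737). The difference of Dusp1 was 0.02 without that library, 0.05 without WT replicate 3 and 0.18 without cKO replicate 2.

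**Figure D2:**
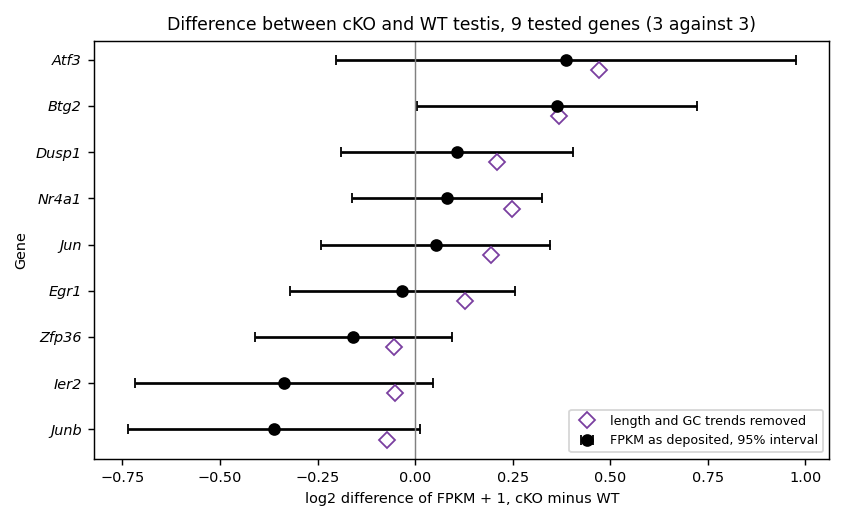
Log2 difference of FPKM + 1, cKO minus WT (horizontal axis), of the 9 tested genes with its 95% interval (black), and the same with each library's length and GC trends removed (open diamonds). The interval of Btg2 alone leaves out 0, at 0.0046 to 0.72, and the diamonds of Junb and Ier2 sit at -0.07 and -0.05.

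The member past an unadjusted p of 0.05 changed with the setting and the library left out. With all 6 libraries, limma without trend and limma without a filter gave 0 members, and the replicate block gave Junb in place of Btg2. Leaving out WT replicate 3 or cKO replicate 2 gave Btg2, leaving out WT replicate 1 gave Atf3, and leaving out cKO replicate 1 gave Junb. Leaving out WT replicate 2 gave 2 genes, Ier2 and Junb, and leaving out cKO replicate 3 gave 0. Of all 14238 genes tested, 1756 were past that p with no library left out, 1657 without trend and 1670 with the replicate block. Without a filter it was 2416 of 33909. Over left-out libraries it ran from 749 of 14238 without cKO replicate 3 to 2398 without cKO replicate 1. In each of these fits 0 members passed after adjustment. The unchanged fit of all 6 libraries and limma without trend each called 2 of all genes, and the others called 0.

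Sequence content moved with several of these differences. The 9 tested members had a median GC content of 55.5% in their longest transcript and a median listed gene length of 3189 bases, beside 49.8% and 4012 bases over the 13945 tested genes of known GC content. Jun, Junb and Ier2 have 1 exon in their longest transcript, and Junb (62.6% GC) and Ier2 (60.9%) have the highest GC content of the 10. With each library's trend on length and GC removed, the log2 difference went from -0.36 to -0.07 for Junb, from -0.34 to -0.05 for Ier2, from -0.16 to -0.06 for Zfp36, from 0.08 to 0.25 for Nr4a1 and from 0.05 to 0.19 for Jun. Btg2, at 49.7% GC, stood at 0.37 and Atf3 at 0.47 after that correction. It too left 0 of 9 members past the adjusted threshold, and Nr4a1 was then the 1 at an unadjusted p under 0.05. 18S ribosomal RNA took 1.58 to 2.09% of reads in WT libraries, most in replicate 1, and 0.727 to 0.835% in cKO libraries. The part of genotype in these trends cannot be told apart from that of the libraries.

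Across libraries the members did not rise or fall as a block. WT replicate 1 held the highest value of 4 members (Fos, Junb, Atf3 and Ier2) and the lowest of 2 (Jun and Btg2). WT replicate 3 held the highest of 3 (Jun, Egr1 and Zfp36) and the lowest of 4 (Fos, Atf3, Dusp1 and Nr4a1). In the cKO group the highest values lay in replicate 1 for 2 (Btg2 and Nr4a1) and replicate 3 for 1 (Dusp1), and the lowest in replicate 3 for 3 (Junb, Ier2 and Zfp36) and replicate 2 for 1 (Egr1). Over the 9 tested members, the mean deviation from each gene's own level ranged from -0.09 in WT replicate 2 to 0.08 in WT replicate 1 on the log2 scale. WT replicate 1 was also the highest library of 26.9% and the lowest of 28.0% of all genes tested, so it stood apart in both directions beyond these genes. No single library was above the gene's own mean for all 10 members: the count was 7, 3 and 6 in WT and 6, 3 and 6 in cKO replicates 1, 2 and 3.

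**Figure D3:**
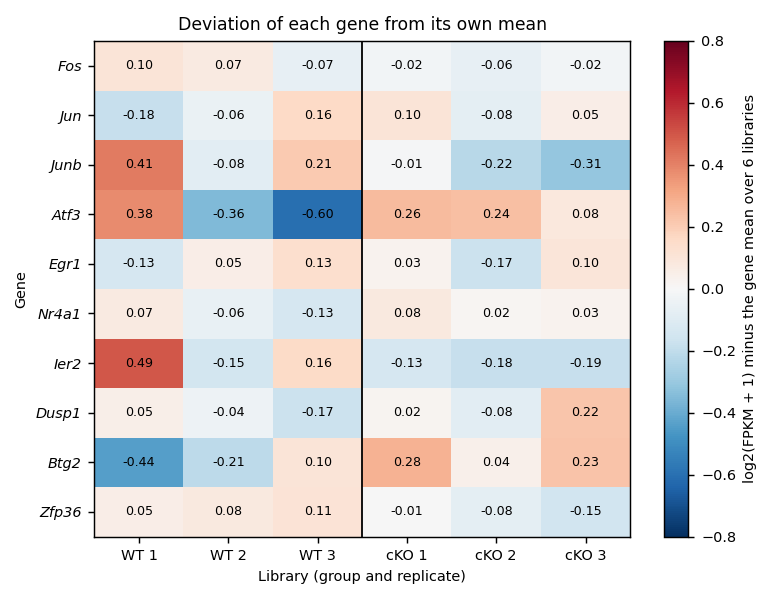
Log2(FPKM + 1) of each gene minus its mean over the 6 libraries, with genes in rows and libraries in columns. Each column holds both signs: WT 1 runs from -0.44 for Btg2 to 0.49 for Ier2, and WT 3 from -0.60 for Atf3 to 0.21 for Junb.

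The mean profile of the tested members was close to flat, with a root mean square of 0.061 on the log2 scale. Deviations of opposite sign cancel in this mean, so it does not show that single members were steady. Of 8244 other genes with a mean of at least 5 FPKM, the 6 nearest to the mean profile over the 6 libraries were Khdrbs3, Acad9, Asf1b, Pigk, Rcan1 and Arf1, at root mean square differences of 0.0278 to 0.0343. Their levels ran from 5.94 FPKM (Acad9) to 206 FPKM (Arf1). Nearness to a profile this flat does not show that these 6 genes move with the members.

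Some members share exon bases with a gene on the opposite strand. The sources used here do not say whether the counting used strand, so reads in the shared bases of such pairs cannot be told apart. Jun overlaps Junos, which was at a mean of 0.645 FPKM, and Zfp36 overlaps Gm44710, at 1.30 FPKM. Recovered reads per library were 36 to 55 for Junos beside 1513 to 1991 for Jun. For Gm44710 they were 8 to 14, beside 202 to 253 for Zfp36. Dusp1 overlaps Ergic1, whose FPKM was 15.8 ± 2.80 in the WT and 15.5 ± 2.06 in the cKO group (SD, n = 3). Junb overlaps Prdx2, an abundant peroxiredoxin gene at 132, 84.6 and 122 FPKM in WT and 89.98, 123 and 115 FPKM in cKO libraries. Junb and Prdx2 had their highest and lowest WT values in the same replicates, while in the cKO group Prdx2 was lowest in replicate 1, where Junb was highest. The other members overlap no exon of another gene in GENCODE M21 on GRCm38.

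All 10 are protein-coding genes. On GRCm38, Fos (ENSMUSG00000021250) on chromosome 12 at 85473890 to 85477273, plus strand, has 4 exons in its longest transcript. Of the other AP-1 genes, Jun (ENSMUSG00000052684) on chromosome 4 at 95049034 to 95052222, minus strand, and Junb (ENSMUSG00000052837) on chromosome 8 at 84974484 to 84978718, minus strand, have 1 exon, and Atf3 (ENSMUSG00000026628) on chromosome 1 at 191170296 to 191218039, minus strand, has 4. The first-wave factors are Egr1 (ENSMUSG00000038418) on chromosome 18 at 34859823 to 34864984, plus strand, with 2 exons, and Nr4a1 (ENSMUSG00000023034) on chromosome 15 at 101254269 to 101274795, plus strand, with 8. Ier2 shares its chromosome with Junb: Ier2 (ENSMUSG00000053560) on chromosome 8 at 84661331 to 84662852, minus strand. The genes that end the response are Dusp1 (ENSMUSG00000024190) on chromosome 17 at 26505590 to 26562128, minus strand, with 3 exons, Zfp36 (ENSMUSG00000044786) on chromosome 7 at 28376784 to 28380253, minus strand, and Btg2 (ENSMUSG00000020423) on chromosome 1 at 134075170 to 134079120, minus strand, both with 2.

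A wider list of 52 other immediate early genes was examined in the same fit, of which 44 were tested. None passed over all genes by limma (lowest adjusted p 0.361). At an unadjusted p under 0.05, 7 were lower and 0 higher. The median log2 difference was -0.10, with 29 of 44 below zero. Every cKO library lay below every WT library in 8 genes and above in 1. In the lower direction those shares were 15.9% for the unadjusted p and 18.2% for groups that do not overlap, beside 7.68% and 9.92% over all genes tested. In both directions together they were 15.9% and 20.5%, beside 12.3% and 18.6%.

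The genes with the lowest p were Cebpd, Klf2, Id3 and Ier5l. Cebpd, a C/EBP factor of acute-phase responses, was at 4.26, 3.66 and 3.75 FPKM in WT and 2.30, 2.68 and 2.09 FPKM in cKO libraries. Every cKO library of Cebpd lay below every WT library (log2 difference -0.54, limma adjusted p = 0.361). Klf2, a flow-responsive factor prominent in endothelium, was at 21.1, 20.3 and 18.3 FPKM in WT and 16.0, 13.9 and 14.2 FPKM in cKO libraries (log2 difference -0.41). Id3, an inhibitor of basic helix-loop-helix factors induced by BMP signals, was at 85.1 ± 21.2 and 51.8 ± 2.53 FPKM (SD, n = 3; log2 difference -0.67). Ier5l, a relative of Ier2, was at 23.8 ± 2.08 and 16.0 ± 3.34 FPKM (SD, n = 3; log2 difference -0.56). The groups did not overlap for any of the 4. Socs3, Ier5 and Id1, outside the naming rule and chosen after their values were seen, completed the 7, at -0.41, -0.54 and -0.66. That tally was 10 lower and 0 higher with WT replicate 2 left out, and 6 to 7 lower with 0 to 2 higher when any other library was left out. Over all 14238 genes tested, both directions together, the counts of the same fits were 2104 and 749 to 2398.

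**Figure D4:**
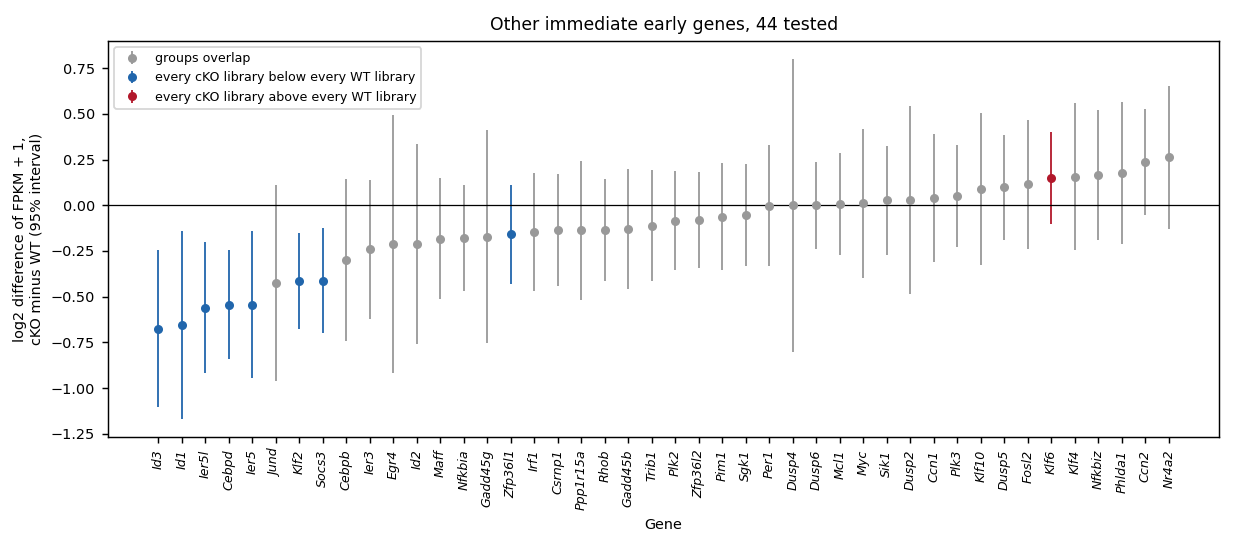
Log2 difference of FPKM + 1, cKO minus WT, with its 95% interval (vertical axis), for the 44 tested genes of the wider list in order of size. The lowest is Id3 at -0.67 and the highest Nr4a2 at 0.26, and colours mark the 8 genes with every cKO library below every WT library and the 1 with every cKO library above.

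With length and GC trends removed, the median of the wider list turned from -0.10 to 0.02 and 19 rather than 29 of 44 were negative. At an unadjusted p under 0.05 by limma, 6 of 44 were then lower and 2 higher. Over all genes it was 825 lower and 363 higher of 13945. Those 6 were the 7 lower genes named above without Klf2. Klf2 went from -0.41 to -0.13 and Ier5l from -0.56 to -0.26, while Cebpd stood at -0.51 and Id3 at -0.50. Of the wider list, 40.9% of genes were highest in WT replicate 1, where 26.9% of all genes were. The Sertoli, stromal, endothelial and macrophage marker sums given above were lower in cKO libraries as well, the macrophage list with 4 of 8 genes on either side of zero, and their part in these differences was not tested.

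Several relatives of Fos and Egr1 were near the floor of the table. The 8 genes of the wider list below a mean of 1 FPKM, named after their values were seen, were Fosb, Fosl1, Egr2, Egr3, Nr4a3, Arc, Rgs1 and Tnfaip3. Fosb, the closest relative of Fos, lay between 0.0201 and 0.118 FPKM in the 6 libraries. Egr2 lay between 0.415 and 0.935 FPKM and Egr3 between 0.200 and 0.528 FPKM. Arc, an activity-regulated gene, was at 1.53 FPKM in cKO replicate 1 and between 0.526 and 0.823 FPKM in the other 5 libraries. In none of these 4 were the groups apart.

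Of 24 kinases and factors upstream of the response, 0 passed by limma (lowest adjusted p 0.381), 3 were higher and 1 lower at an unadjusted p under 0.05 (16.7%, beside 12.3% of all genes), and the median log2 difference was -0.01. With length and GC trends removed, 0 were higher and 1 lower at that unadjusted p, beside 8.52% of all genes, and the 1 was Elk3, named after its values were seen. Rps6ka3, the RSK2 kinase that phosphorylates CREB and SRF, had a mean of 12.4 ± 1.56 FPKM in WT and 15.9 ± 1.30 FPKM in cKO libraries, with groups that did not overlap. Mapk8, the JNK1 kinase of Jun, was at 4.78 ± 0.287 and 6.21 ± 0.907 FPKM, and its activator Map2k4 at 17.8 ± 1.01 and 21.8 ± 2.33 FPKM, again without overlap. Map2k2, a kinase of the ERK branch, was at 27.99 ± 4.32 and 21.97 ± 1.91 FPKM, with overlap (all SD, n = 3). None of these 4 was past the unadjusted p after the length and GC correction, which took the log2 difference from 0.34 to 0.11 for Rps6ka3, from 0.31 to 0.06 for Mapk8, from 0.28 to 0.16 for Map2k4 and from -0.33 to -0.12 for Map2k2.

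Heat shock genes, another class read for tissue stress, gave no call. Of 15 tested, 0 passed by limma (lowest adjusted p 0.474) and 0 were at an unadjusted p under 0.05, beside 12.3% of all genes, with a median log2 difference of 0.00 (0.0016). With length and GC trends removed, 2 of 15 were higher at that p, Hspa1a and Cryab, and 0 lower. Over all genes it was 363 higher and 825 lower of 13945, or 8.52% in both directions. Hspa8, the constitutive HSC70 chaperone, had 340 ± 36.9 FPKM in WT and 404 ± 9.57 FPKM in cKO libraries (SD, n = 3), the 1 gene of the list whose groups did not overlap (6.67%, beside 18.6% of all genes). Hsp90aa1 stood at a log2 difference of 0.36, Hsf1, the master factor of the response, at -0.18, and Hspb1 at -0.19. Hspa1a and Cryab are outside the naming rule and were chosen after their values were seen. The inducible Hspa1a was between 8.12 and 9.63 FPKM in all 6 libraries, and it is near-identical to Hspa1b, so reads may be divided between them.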

How the data were processed

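Whole-testis RNA of 6 mouse samples was extracted with Trizol and made into SMARTER mRNA-Seq libraries, per the labels' protocols. The authors deposited FPKM per gene. Builds GRCm38 and mm10 are named, per the submitters' processing notes, while the sources used here name no aligner, counting tool or strand setting. Table positions differ from GRCm38 (1499 of 52081 shared identifiers have the same start), so printed positions are those of GENCODE M21. Multiplying FPKM by listed gene length gave whole steps in each library for 100% of values (tolerance 0.01), and these were taken as reads per gene.

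Values were tested as log2(FPKM + 1) in limma 3.58.1 (R 4.3.3), trend included, for all genes averaging at least 1 FPKM, cKO minus WT, Benjamini-Hochberg over all of them, threshold 0.05. This scale understates changes of low genes. The procedure was tested on simulated data. Members and lists were chosen with earlier results of these data known. Named genes are the members, Srsf2, the 4 of each other list with the lowest p, and the 6 of nearest profile. Alternatives were pseudocounts, filters, scalings, limma without trend or robust, voom on recovered reads (at least 10 in 3 libraries), the replicate block and left-out libraries. Removal of length and GC trends (splines, 5 degrees of freedom) was added after seeing the data. Python 3.11.15 with pandas 2.3.3, scipy 1.17.1 and matplotlib 3.10.9 did the rest.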

Additional observations from a re-analysis of the deposited data

How the results depend on the processing

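Over the 19 other settings, 0 members and 0 genes of the wider list passed the adjusted threshold. Of 169 member differences recomputed, 164 kept their direction. The filters, limma without trend or robust, and the replicate block leave the difference itself unchanged, so the direction could not turn in those settings. Egr1 turned to 0.024 on the TPM scale and 0.13 with length and GC trends removed, and ranged from -0.11 to 0.045 over left-out libraries. Jun ranged from -0.026, without WT replicate 1, to 0.15. Over all settings Junb ranged from -0.49 to -0.07, Ier2 from -0.49 to -0.05, Atf3 from 0.18 to 0.80 and Btg2 from 0.24 to 0.51. The 2 genes called over all genes, neither of them a member, were 1 with a pseudocount of 0.1 or 0.5, a mean of at least 5 FPKM or voom on recovered reads, 0 without a filter or with the replicate block, 3 with length and GC trends removed, and 0 to 0 over left-out libraries. Deviations of same-numbered samples correlated at 0.095, -0.33 and 0.39, and those of unlike-numbered samples at -0.45 to 0.35. With 3 samples per group, these values cannot decide whether the numbers pair the samples. Depth limits Fos, at 24 to 31 reads per library, and the genes below it.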
